A study of Mus musculus with 27 samples.

Results

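The MHC class I genes of mouse hepatocytes were compared across 9 inbred strains. They were the rows of the deposited count table whose Ensembl gene ID carried the GENCODE M21 symbol H2-K1, H2-D1, H2-Q1, H2-Q2, H2-Q4, H2-Q6, H2-Q7, H2-Q10, H2-T23 or B2m, which gave 10 genes of 43346 in the table. The samples were hepatocytes, the main cell type of the liver, isolated from female mice at 12 weeks of age, with 3 RNA-seq libraries per strain and 27 in all. The wild-derived strains were PWK/PhJ, CAST/EiJ and WSB/EiJ, and the laboratory strains were A/J, C57BL/6J, NZO/HlLtJ, 129S1/SvImJ, NOD/ShiLtJ and DBA/2J. The labels give no treatment or engineered allele, so strain was the only factor. The labels call the libraries biological replicates without naming the animals, so p-values measure the spread between these libraries. The wider study also surveyed chromatin marks and DNA methylation, which were not used here.

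A class I molecule is a heavy chain, which holds a peptide from inside the cell, paired with the light chain beta-2 microglobulin, encoded by B2m. H2-K1 and H2-D1 encode the classical heavy chains, which are found on nearly all nucleated cells and show peptides to cytotoxic T cells. The genes of the Q and T regions encode non-classical chains, among them Qa-2 from H2-Q7, Qa-1 from H2-T23, and the secreted chain of H2-Q10, which is made mainly in liver. The heavy chain genes lie in the H2 complex, the mouse MHC, which is inherited as a block called a haplotype. As background, C57BL/6J (the source of the reference genome) and 129S1/SvImJ carry b-type haplotypes, DBA/2J carries d, A/J carries k at the K end and d at the D end, and NOD/ShiLtJ carries g7, with d at the K end and b at the D end. Haplotypes differ in sequence and in which class I genes they hold, so reads of a divergent allele can be lost or assigned to another gene. Whether strain-specific genomes were used in the alignment is not given in the sources used here, so every level below is a level of the reads assigned to that gene.

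In the GENCODE M21 annotation (GRCm38), 9 of the 10 genes lay on chromosome 17 within 2.04 Mb. H2-K1 stood at the centromeric end (chr17:33996017-34000347, minus strand) and H2-D1 at chr17:35262730-35267499 (plus strand). H2-Q1 (from 35320405) to H2-Q10 (to 35474563) followed within 154 kb on the plus strand, and H2-T23 lay at chr17:36029773-36032855 on the minus strand. B2m lay apart, at chr2:122147686-122153083. All 10 are annotated as protein coding.

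The heavy chains are alike enough for reads to be shared. Between the coding sequences of the 36 pairs of heavy chain genes the identity ran from 81.1% to 95.4%, with a median of 87.7%. H2-Q6 and H2-Q7 were the most alike at 95.4%, H2-K1 and H2-D1 were 91.5% identical, and the 8 pairs with H2-T23 ran from 81.1% to 83.7%. A window of 60 bases, shown because it reads the same in H2-K1, H2-D1, H2-Q6, H2-Q7 and H2-Q10, lay in exon 4 of H2-K1, which encodes the membrane-proximal alpha-3 domain (chr17:33997358-33997417, coding bases 754 to 813 counted from the A of the start codon):
shared window: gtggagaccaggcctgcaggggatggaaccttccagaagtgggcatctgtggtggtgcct
A window of the same length in exon 3, which encodes the alpha-2 domain of the peptide groove (chr17:33999348-33999407, coding bases 474 to 533 of H2-K1), is shown because it separated these genes best. Capitals mark bases unlike H2-K1, which numbered 14 in H2-D1, 13 in H2-Q10, 11 in H2-Q6 and 13 in H2-Q7:
H2-K1: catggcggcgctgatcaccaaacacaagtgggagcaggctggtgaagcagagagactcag
H2-D1: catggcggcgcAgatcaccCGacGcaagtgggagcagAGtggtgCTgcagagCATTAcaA
H2-Q10: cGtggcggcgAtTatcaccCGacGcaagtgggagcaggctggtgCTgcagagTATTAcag
H2-Q6: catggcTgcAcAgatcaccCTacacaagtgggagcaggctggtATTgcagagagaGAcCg
H2-Q7: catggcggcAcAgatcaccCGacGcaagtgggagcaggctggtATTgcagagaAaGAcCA
These are sequences of the C57BL/6J reference; alleles of the other strains were not used here.

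The deposited values carry the mark of shared reads. They are estimated counts, in which a read that matches several genes can be divided, and a value that is not whole (farther than 1e-06 from a whole number) records such a division. Values of H2-K1, H2-D1, H2-Q4, H2-Q6, H2-Q7, H2-Q10 and H2-T23 were not whole in 27 of 27 libraries, those of H2-Q1 in 26 and those of H2-Q2 in 25. B2m, which has no close copy, was whole in all 27 libraries. Over the table, 1805 of the 24829 genes with any count, or 7.3%, were not whole in all libraries. The shares of 50-base windows of the reference transcript that also occur in a transcript of another gene were 0% for B2m and highest for H2-Q7 at 40.2%, H2-Q4 at 39.2% and H2-Q6 at 35%. They were 29.8% for H2-T23, 22.9% for H2-Q1, 14.3% for H2-D1, 8.8% for H2-K1, 8.7% for H2-Q2 and 8% for H2-Q10. H2-Q6 shared 13.9% of its windows with H2-Q7, and H2-K1 shared 6.9% with H2-D1, so the split between close copies is less certain than their sum.

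Class I promoters are known for a common set of elements, bound by NF-kB, interferon regulatory factors and the X and Y box factors. Promoter sequences of RefSeq (GRCm38.p6), the 250 bases before the transcription start, were at hand for 9 of the 10 genes, all but H2-Q1. The AANNGAAA core of the interferon response element (either strand) was in 9 of 9, against 21.3% of 32536 promoters of that length. The CCAAT box was in 8 of 9 (all promoters, 33.8%), and the TGACG element in 5 of 9 (all promoters, 17.9%). The NF-kB consensus was in 6 of 9, H2-K1, H2-D1, H2-Q4, H2-Q6, H2-Q7 and B2m, against 3.9% of all promoters. The H2-Q10 promoter held only the interferon core of these 4 motifs. H2-K1, H2-Q10 and B2m are printed as examples of a classical heavy chain, the secreted chain and the light chain; capitals mark motif matches on either strand, and a match is a description of the letters, not a measured site. H2-K1 lies at chr17:34000348-34000597 (minus strand), H2-Q10 at chr17:35469839-35470088 (plus strand) and B2m at chr2:122147437-122147686 (plus strand):
H2-K1: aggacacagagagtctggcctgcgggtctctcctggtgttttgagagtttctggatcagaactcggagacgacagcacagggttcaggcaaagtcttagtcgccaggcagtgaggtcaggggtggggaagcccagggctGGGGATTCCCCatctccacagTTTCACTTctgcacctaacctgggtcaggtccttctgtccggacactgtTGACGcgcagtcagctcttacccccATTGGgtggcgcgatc
H2-Q10: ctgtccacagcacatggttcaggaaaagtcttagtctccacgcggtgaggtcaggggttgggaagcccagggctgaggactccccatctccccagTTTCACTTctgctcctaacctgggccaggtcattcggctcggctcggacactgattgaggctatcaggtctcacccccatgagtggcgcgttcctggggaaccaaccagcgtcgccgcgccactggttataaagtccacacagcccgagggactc
B2m: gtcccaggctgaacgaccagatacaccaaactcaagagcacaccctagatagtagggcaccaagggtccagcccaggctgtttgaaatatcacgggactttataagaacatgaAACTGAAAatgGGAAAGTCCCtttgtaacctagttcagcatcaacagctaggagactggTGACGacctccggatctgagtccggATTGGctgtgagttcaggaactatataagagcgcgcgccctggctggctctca

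Library totals ran from 17015956 to 35078511 estimated counts, and 14482 genes passed the filter on low counts. Levels are given in CPM, counts scaled to the library size with TMM factors, in which 1 count in a library was worth 0.0253 to 0.0516 CPM. The labelled cell type was borne out by its markers: Alb, which encodes albumin, stood at 80416.3 CPM or more in every library, and 10 of 10 hepatocyte markers were measured. Markers of other liver cells were present and varied. For Kupffer cells, the macrophages of the liver, 11 of 11 markers passed the filter, and their summed level averaged 254.4 CPM in C57BL/6J, 252.7 in PWK/PhJ and 213.1 in A/J, but 61.7 in 129S1/SvImJ, 67 in CAST/EiJ and 70.5 in NZO/HlLtJ. The 10 endothelial markers summed to means of 75.3 (NZO/HlLtJ) to 386.2 CPM (PWK/PhJ). The 10 markers of class II antigen-presenting cells summed to means of 11.9 (NOD/ShiLtJ) to 187 CPM (PWK/PhJ). Several of the latter are H2 genes too, whose reads may be lost or shared between strains. In PWK/PhJ, H2-Aa stood at 46.1 CPM and H2-Eb1 at 0.625. The 9 stellate cell markers summed to 19.2 to 103.4 CPM per library. Only 2 of 12 lymphocyte, 2 of 6 cholangiocyte and 1 of 5 neutrophil markers passed the filter, and the T cell genes Cd3d, Cd3e and Cd8a did not. PWK/PhJ replicate 1 stood apart, with 449.9 CPM of Kupffer and 699.3 CPM of endothelial markers against 154.1 and 249.8 or less in the other PWK/PhJ libraries.

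**Figure D1:**
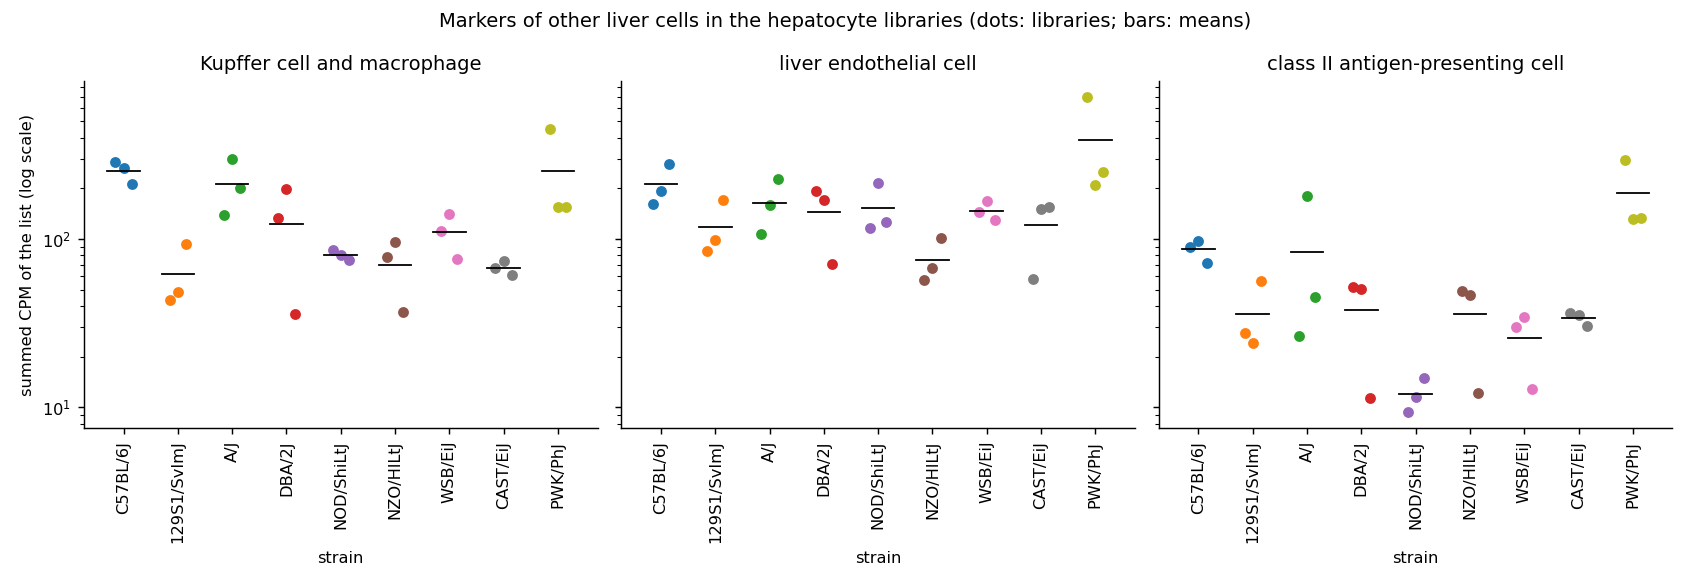
Summed CPM (log axis) of Kupffer cell, liver endothelial and class II antigen-presenting cell markers in each library, with the strain mean as a bar. The C57BL/6J libraries carry 213.6 to 285.1 CPM of Kupffer markers and the 129S1/SvImJ libraries 43.3 to 93.2 CPM, and PWK/PhJ replicate 1 is the highest point of all 3 panels.

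Nearly all cells of the liver make class I molecules, so the levels below are of a mixture, and in bulk RNA fewer cells of a type and less RNA per cell cannot be told apart. All 10 genes passed the filter and all 10 were called for a difference among the 9 strains (edgeR quasi-likelihood test, Benjamini-Hochberg adjusted p under 0.05), where 74.2% of all tested genes were called. The call alone therefore says little, and the size says more. The strain range, the highest minus the lowest strain mean of log2(CPM + 0.5), had a median of 3.01 over the 10 genes (0.86 in B2m to 5.66 in H2-Q2) and of 0.94 over all 14482 genes. Of the 360 tests of a gene in a pair of strains, 222 or 61.7% were called, against 23.4% over all genes and pairs.

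**Figure D2:**
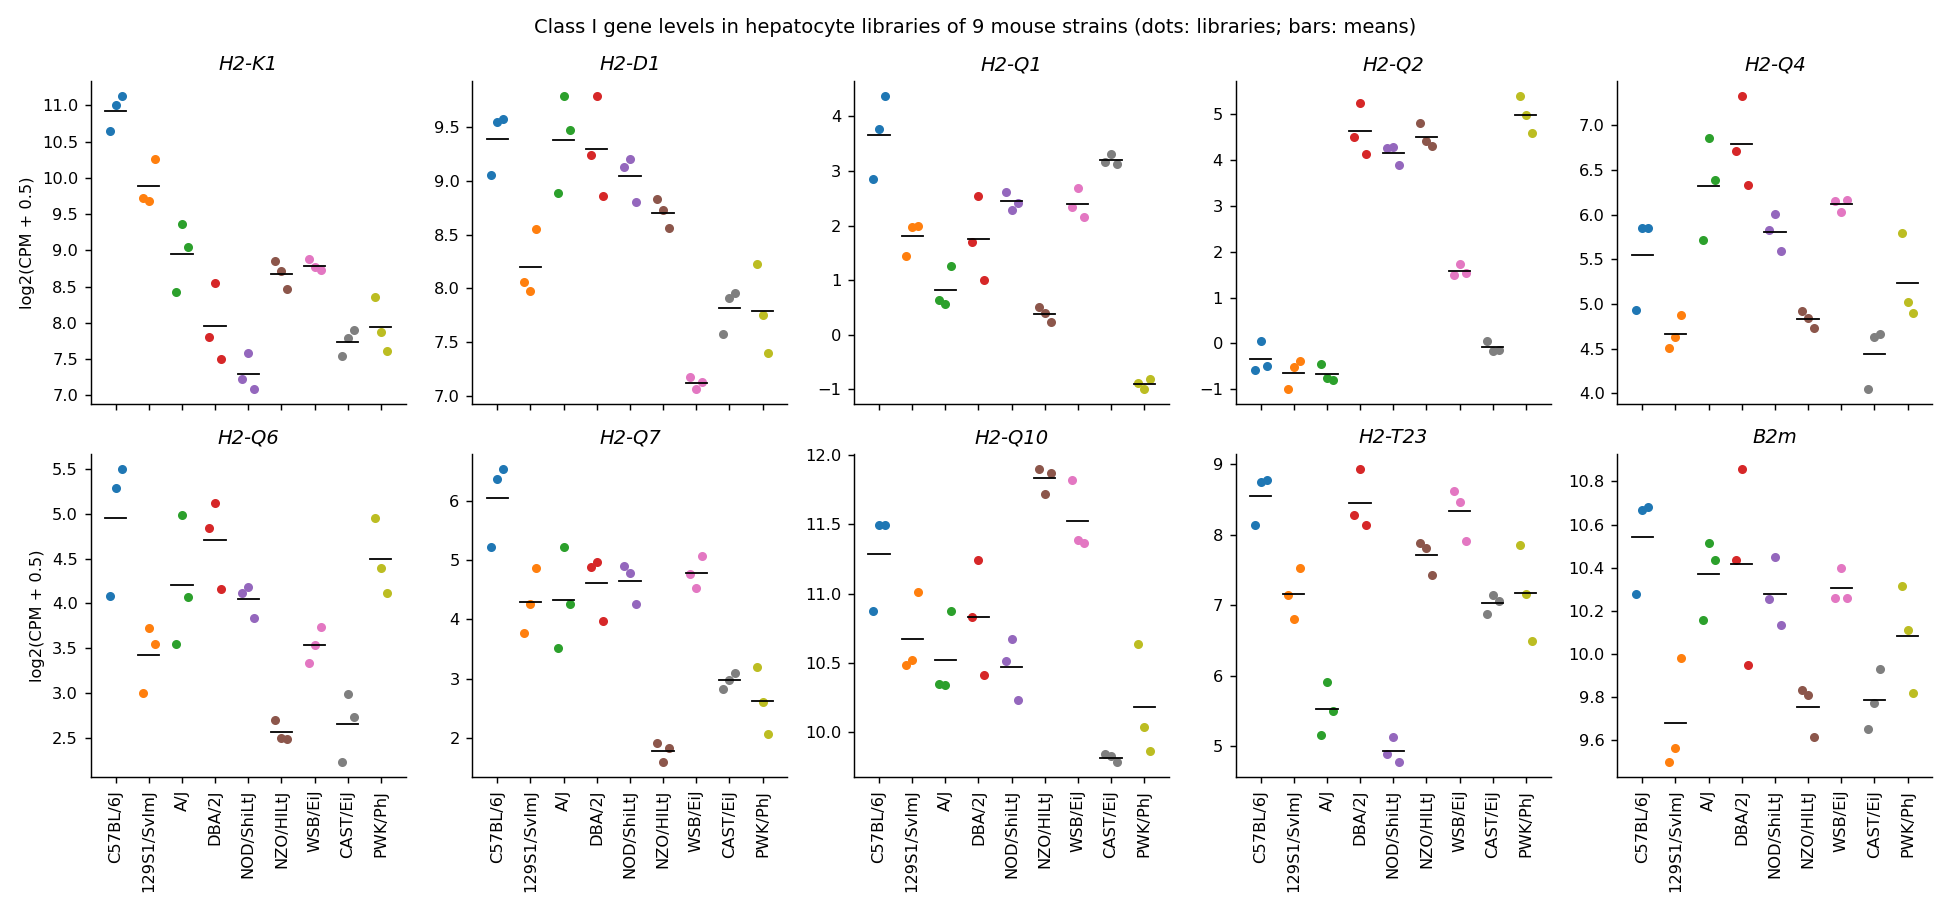
Level of each gene, as log2(CPM + 0.5), in the 3 libraries of each strain (dots) with the strain mean (bar); each panel has its own axis. H2-Q2 splits the strains into widely spaced levels, H2-K1 is highest in C57BL/6J, and B2m spans the narrowest range.

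H2-K1, the classical K chain, was highest in C57BL/6J and lowest in NOD/ShiLtJ. Its libraries held 1604.8, 2048.4 and 2247.8 CPM in C57BL/6J replicates 1, 2 and 4, and 149.7, 191.2 and 135.3 CPM in NOD/ShiLtJ replicates 1 to 3. Between these lay 129S1/SvImJ at 842.6, 823 and 1232.5 CPM and A/J at 343.6, 660.8 and 530.4 CPM. No library of any other strain reached the lowest C57BL/6J library, and none of the 3 NOD/ShiLtJ libraries lay above 191.2 CPM. The means were 1967 ± 329 CPM (SD, n = 3) in C57BL/6J and 158.7 ± 29.1 CPM (SD, n = 3) in NOD/ShiLtJ, a ratio of 12.4 (log2 difference 3.63, SE 0.28, edgeR adjusted p = 8.73e-10). From high to low the order was C57BL/6J, 129S1/SvImJ, A/J, WSB/EiJ (443 ± 24 CPM), NZO/HlLtJ (411.2 ± 54.1), DBA/2J (260.4 ± 103), PWK/PhJ (252.4 ± 68.3), CAST/EiJ (214.8 ± 27) and NOD/ShiLtJ. The first 2 steps passed the test, C57BL/6J over 129S1/SvImJ by 2.04-fold (adjusted p = 0.0072) and 129S1/SvImJ over A/J by 1.89-fold (adjusted p = 0.011); the other 6 neighbouring pairs had overlapping libraries and did not. With Kupffer and endothelial marker means as covariates, the log2 difference of 129S1/SvImJ from C57BL/6J moved from -1.03 to -0.28 (adjusted p = 0.64). Over all genes, 2.96% of neighbouring pairs were called when each gene's strains were ordered in this way.

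H2-D1, the classical D chain, followed another order. Its libraries held 531.8, 749.9 and 761.3 CPM in C57BL/6J, 472, 887.2 and 711.2 in A/J, and 605, 882.8 and 463.9 in DBA/2J. These 3 strains overlapped throughout, and NOD/ShiLtJ, lowest of all in H2-K1, stood beside them at 559.4, 590 and 446.6 CPM. WSB/EiJ was lowest, at 144.4, 133 and 139.2 CPM, below every library of the other strains. A/J exceeded WSB/EiJ by 4.97-fold (690.2 ± 208 against 138.8 ± 5.72 CPM, SD, n = 3; edgeR adjusted p = 3.62e-07). The only neighbours in the order that passed the test were CAST/EiJ (226.2 ± 31.8 CPM) and WSB/EiJ, by 1.63-fold (adjusted p = 0.028).

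Because H2-K1 and H2-D1 are read in the same library, their ratio does not depend on depth or scaling. Per H2-D1 count, C57BL/6J libraries held 3.02, 2.73 and 2.95 H2-K1 counts, 129S1/SvImJ 3.16, 3.28 and 3.28, and WSB/EiJ 3.25, 3.29 and 3.04. In these 3 strains H2-K1 held the more counts of the classical chains. PWK/PhJ (1.12 ± 0.0354), NZO/HlLtJ (0.98 ± 0.039) and CAST/EiJ (0.951 ± 0.0313, SD, n = 3) held about equal counts of both. H2-D1 held the more counts in A/J, with ratios of 0.728, 0.745 and 0.746, in DBA/2J with 0.37, 0.426 and 0.39, and in NOD/ShiLtJ with 0.268, 0.324 and 0.303. The mean ratio thus ran from 0.298 in NOD/ShiLtJ to 3.24 in 129S1/SvImJ, while the SD within a strain was 0.15 or less. The H2-D1 transcript is the longer (2102 against 1619 bases), and per kilobase the mean ratio was 0.96 in A/J, 0.513 in DBA/2J and 0.387 in NOD/ShiLtJ, 1.24 to 1.45 in CAST/EiJ, NZO/HlLtJ and PWK/PhJ, and 3.77 to 4.21 in the first 3 strains. In A/J the level of H2-K1 moved from 343.6 to 660.8 CPM between libraries and the ratio only from 0.728 to 0.746. These ratios were computed after the levels were seen and were not tested.

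**Figure D3:**
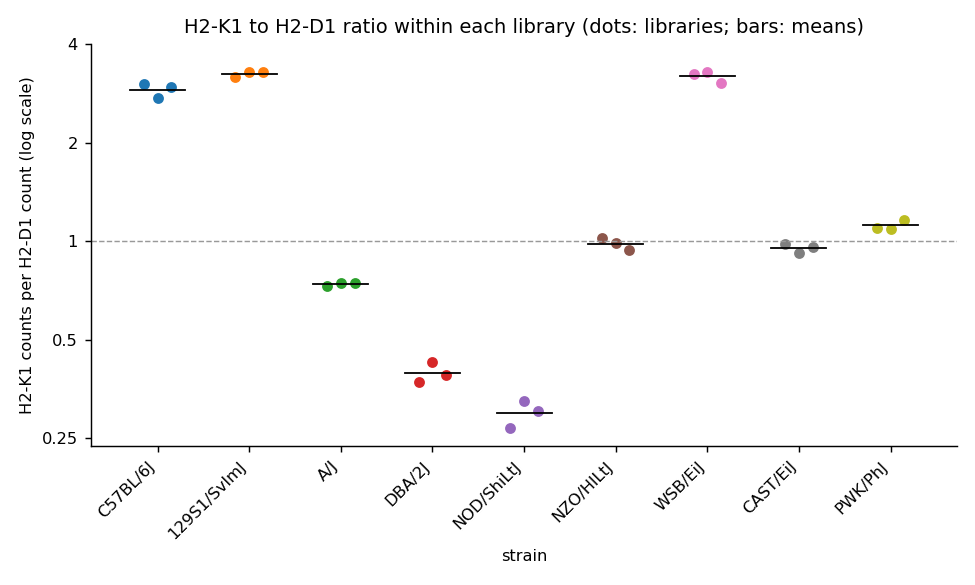
Estimated counts of H2-K1 per count of H2-D1 (log axis) in each library, with the strain mean as a bar and a dashed line at equal counts. C57BL/6J, 129S1/SvImJ and WSB/EiJ sit near 3, and A/J, DBA/2J and NOD/ShiLtJ sit below 1 with little spread within a strain.

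Of the Q region genes, H2-Q1, H2-Q2, H2-Q4, H2-Q6 and H2-Q7 had strain means of 115 CPM or less. H2-Q2, a non-classical heavy chain gene, had the widest range of the 10 genes. Its libraries held 42, 31.2 and 23.6 CPM in PWK/PhJ, 22.3, 37.4 and 17 in DBA/2J, 27.5, 21 and 19.5 in NZO/HlLtJ, and 18.9, 19.1 and 14.5 in NOD/ShiLtJ. WSB/EiJ stood between at 2.32, 2.82 and 2.39 CPM, and every library of CAST/EiJ, C57BL/6J, 129S1/SvImJ and A/J lay at 0.534 CPM or below. In A/J the 3 libraries held 9 counts in all, so that the ratio of PWK/PhJ to A/J, 241, has a 95% interval of 127 to 528 from the counting of those reads (exact Poisson, counting error only). The steps from NOD/ShiLtJ to WSB/EiJ (6.96-fold, adjusted p = 7.03e-07) and from WSB/EiJ to CAST/EiJ (5.64-fold, adjusted p = 5.87e-05) passed the test. Within the upper 4 strains and within the lower 4 no neighbours did.

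H2-Q1, also of the Q region, was nearly unread in PWK/PhJ, where H2-Q2 was highest. PWK/PhJ libraries held 1, 0 and 2 estimated counts, against 195.5, 320.7 and 482.2 counts (6.7, 13.2 and 20.3 CPM) in C57BL/6J. The ratio of the means, 378, has a 95% Poisson interval of 129 to 1832 from the 3 PWK/PhJ counts. CAST/EiJ was the nearest to C57BL/6J, at 8.45, 9.42 and 8.2 CPM, and the difference was not called (1.54-fold, adjusted p = 0.16). NZO/HlLtJ was low at 0.917, 0.81 and 0.674 CPM, yet above PWK/PhJ (adjusted p = 9.72e-05). The other called neighbours were 129S1/SvImJ (3.04 ± 0.727 CPM) and A/J (1.31 ± 0.509 CPM, SD, n = 3; adjusted p = 0.027). H2-Q1 shares 13.9% of its 50-base windows with H2-Q2, and how reads of the 2 genes were divided in each strain was not tested.

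H2-Q7, which encodes Qa-2, held 36.7, 82 and 92.5 CPM in C57BL/6J and 3.29, 2.51 and 3.05 CPM in NZO/HlLtJ, a ratio of 23.9. C57BL/6J replicate 1 lay far below the other C57BL/6J libraries, but above every library outside that strain except 1 of A/J, at 36.8 CPM. C57BL/6J led, with 70.4 ± 29.7 CPM (SD, n = 3); WSB/EiJ, NOD/ShiLtJ, DBA/2J, A/J and 129S1/SvImJ followed with means of 20.1 to 27.4 CPM; and CAST/EiJ, PWK/PhJ and NZO/HlLtJ came last with means of 2.95 to 7.37 CPM. Of neighbours in the order, the called steps were from C57BL/6J to WSB/EiJ (2.57-fold, adjusted p = 0.016) and from 129S1/SvImJ to CAST/EiJ (2.73-fold, adjusted p = 0.007). The step from C57BL/6J to WSB/EiJ was not called without C57BL/6J replicate 2 or 4 or without WSB/EiJ replicate 2 or 3. Nor was it called with Kupffer and endothelial marker means as covariates. CAST/EiJ also exceeded NZO/HlLtJ, which stood 2 ranks lower, by 2.5-fold (adjusted p = 0.018).

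H2-Q6, the closest to H2-Q7 of the 9 heavy chain genes by coding sequence, ran from 16.4, 38.6 and 44.8 CPM in C57BL/6J to 5.99, 5.14 and 5.1 CPM in NZO/HlLtJ (6.15-fold between the means), with no called step between neighbours. PWK/PhJ ranked 3 of 9 in H2-Q6, at 30.4, 20.6 and 16.9 CPM, but 8 of 9 in H2-Q7, at 8.63, 5.6 and 3.72 CPM. The sum of both, which does not depend on how reads were split between these 2 genes, was 103.7 ± 44.5 CPM in C57BL/6J, 28.6 ± 9.48 in PWK/PhJ and 8.35 ± 0.838 CPM (SD, n = 3) in NZO/HlLtJ. Reads may still be shared beyond the pair, since H2-Q7 shares 20.1% of its windows with H2-Q5 and H2-Q6 shares 12.3% with H2-Q4. H2-Q4, a heavy chain gene of the same cluster, was highest in DBA/2J at 104.3, 160.8 and 80 CPM and lowest in CAST/EiJ at 16, 24.2 and 24.8 CPM, a ratio of 5.31. Its strain means formed a gradient in which no neighbours passed the test.

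H2-Q10 was the most abundant heavy chain in every strain. NZO/HlLtJ libraries held 3821.2, 3374.6 and 3748.5 CPM, WSB/EiJ 3616.1, 2681.5 and 2637.2, and C57BL/6J 1877.4, 2890.9 and 2880.7 CPM. CAST/EiJ was lowest, with a narrow spread, at 916.6, 910.8 and 880.8 CPM. The means differed by 4.04-fold between NZO/HlLtJ (3648.1 ± 240 CPM) and CAST/EiJ (902.7 ± 19.2 CPM, SD, n = 3), and no neighbours in the order passed the test. NZO/HlLtJ, which led in H2-Q10, was the lowest strain in H2-Q6 and H2-Q7. Per kilobase of transcript, the level of H2-Q10 in C57BL/6J was 1280.6 CPM, beside 1214.9 for H2-K1, 324 for H2-D1 and 1747.4 for B2m. In NZO/HlLtJ it was 1832.3 CPM per kilobase for H2-Q10, beside 254 for H2-K1 and 1004.3 for B2m.

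H2-T23, whose product Qa-1 is read by the inhibitory receptor CD94/NKG2A of natural killer cells, was sharply lower in A/J and NOD/ShiLtJ. Those strains held 35.2, 59.5 and 44.8 CPM and 29.3, 34.4 and 26.8 CPM. Every library of the other 7 strains lay at 89.9 CPM or above. C57BL/6J held 282, 429.6 and 437.7 CPM, DBA/2J 310.8, 488.5 and 281.1, and WSB/EiJ 393.5, 354.2 and 239.3 CPM. The only called step between neighbours fell from CAST/EiJ (130.2 ± 12 CPM) to A/J (46.5 ± 12.2 CPM, SD, n = 3), at 2.8-fold (adjusted p = 2.67e-04). Its T region neighbour H2-T22, a ligand of some gamma-delta T cells, was likewise low in NOD/ShiLtJ, at a mean of 15.2 CPM, though lowest in CAST/EiJ at 8.85 and highest in C57BL/6J at 108.5 CPM. H2-T10, a close copy of H2-T22, was highest in A/J (mean 49.1 CPM) and NOD/ShiLtJ (42.3 CPM) and lowest in C57BL/6J (1.97 CPM), the highest strain of H2-T22. H2-T22 and H2-T10 were not whole in 27 libraries either.

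B2m, the light chain shared by all of these products, varied least. Its libraries held 1242.7, 1625.4 and 1640.1 CPM in C57BL/6J and 722.1, 755.8 and 1011.6 CPM in 129S1/SvImJ, the lowest strain, a ratio of 1.81 (edgeR adjusted p = 0.0038). With Kupffer and endothelial marker means as covariates the log2 difference moved from -0.86 to -0.31 (adjusted p = 0.46). CAST/EiJ (884.4 ± 85.3 CPM) and NZO/HlLtJ (863.7 ± 70.4 CPM, SD, n = 3) lay beside 129S1/SvImJ. No neighbours in its order passed the test. Its strain range of 0.86 exceeded that of 43.8% of all tested genes, while the range of H2-K1 exceeded 95.9% and that of H2-Q2 98.7%. B2m was thus the only one of the 10 whose strain range was below the median of all genes, and the only one whose reads were never divided.

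Set against B2m, the heavy chain counts differed in total and in make-up. Counts of the 9 heavy chains per B2m count averaged 5.52 ± 0.499 in NZO/HlLtJ, 3.8 ± 0.24 in C57BL/6J and 3.75 ± 0.15 in 129S1/SvImJ, but 1.72 ± 0.116 in CAST/EiJ and 1.74 ± 0.253 (SD, n = 3) in PWK/PhJ. Without the secreted H2-Q10, C57BL/6J led with 2.12 ± 0.108 and PWK/PhJ was lowest with 0.66 ± 0.105, and NZO/HlLtJ stood at 1.27 ± 0.0592. H2-Q10 took 44.2% ± 1.51 of heavy chain counts in C57BL/6J and 76.8% ± 2.49 (SD, n = 3) in NZO/HlLtJ. H2-K1 took 34.5% ± 2.07 in C57BL/6J and 30.8% ± 0.508 in 129S1/SvImJ, but 6.97% ± 0.491 (SD, n = 3) in NOD/ShiLtJ. The 10 genes together held 0.26% to 0.724% of a library's counts. None of these values was corrected for length: the B2m transcript has 860 bases and those of the heavy chains 1262 to 2102. Counts per B2m count are therefore not ratios of molecules. These sums were not tested.

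**Figure D4:**
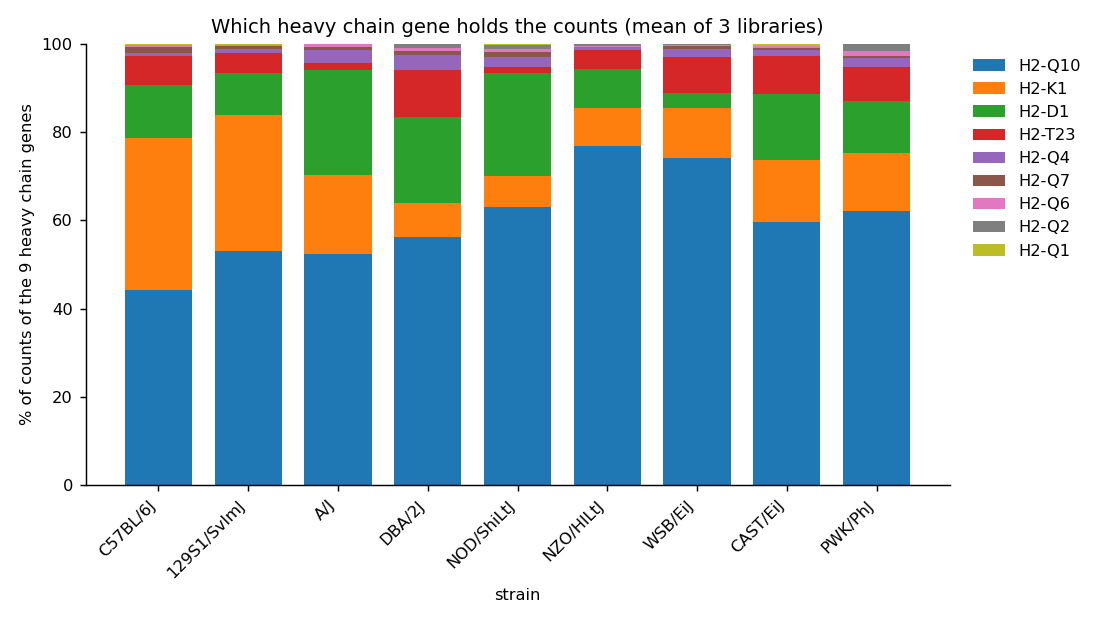
Mean share (%) of each gene in the counts of the 9 heavy chain genes, by strain, without correction for transcript length. H2-Q10 takes the largest share in all 9 strains, 44.2% in C57BL/6J and 76.8% in NZO/HlLtJ, and the shares of H2-K1 and H2-D1 change places between strains.

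Against C57BL/6J, class I genes were mostly lower in the other strains. The 8 comparisons share the same 3 C57BL/6J libraries, so they are not independent of each other, and adjusted p-values are from edgeR over all 14482 genes. In 129S1/SvImJ 8 of 10 genes were called, where 20.9% of all genes were; all 8 were lower and 0 higher (all genes, 11.7% lower and 9.2% higher). In CAST/EiJ 8 were called, where 38% of all genes were; all 8 were lower and 0 higher (all genes, 19.7% and 18.4%). A/J had 5 called (all genes, 7.84%), 5 lower and 0 higher (all genes, 4.03% and 3.81%). A fit on the 6 libraries of A/J and C57BL/6J called 3, and leaving out each of 17 libraries ended the H2-Q10 call. NZO/HlLtJ had 9 called (all genes, 29.3%), 8 lower and 1 higher (16.2% and 13.2%). PWK/PhJ had 7 called (all genes, 26.2%), 6 lower and 1 higher (13.7% and 12.5%). NOD/ShiLtJ had 7 called (all genes, 15.9%), 6 lower and 1 higher (8.51% and 7.39%). WSB/EiJ had 6 called (all genes, 13.6%), 5 lower and 1 higher (6.76% and 6.88%). DBA/2J had 5 called (all genes, 9.06%), 3 lower and 2 higher (4.16% and 4.9%). The median log2 difference of the 10 genes ran from -0.21 in DBA/2J to -1.53 in CAST/EiJ, while that of all genes lay between -0.02 and 0.01.

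H2-K1 and H2-Q7 were lower in all 8 strains, H2-K1 from -1.03 (SE 0.26) in 129S1/SvImJ to -3.63 (SE 0.28) in NOD/ShiLtJ. H2-Q7 ran from -1.36 (SE 0.38) in WSB/EiJ to -4.58 (SE 0.44) in NZO/HlLtJ. Its call was lost on leaving out each of 4 libraries in WSB/EiJ, 2 in DBA/2J and 2 in NOD/ShiLtJ. The higher calls were H2-Q2 in PWK/PhJ (6.73), DBA/2J (6.39), NZO/HlLtJ (6.23), NOD/ShiLtJ (5.85) and WSB/EiJ (3.05), and H2-Q4 in DBA/2J (1.26). H2-D1 was lower in WSB/EiJ (-2.29), CAST/EiJ (-1.59), PWK/PhJ (-1.58), 129S1/SvImJ (-1.19) and NZO/HlLtJ (-0.70). The H2-D1 call in NZO/HlLtJ (adjusted p = 0.034) was lost on leaving out each of the 3 NZO/HlLtJ libraries in turn (adjusted p = 0.062 to 0.1) and without C57BL/6J replicate 2 or 4 (0.11 and 0.13). With the marker covariates the H2-D1 difference became 0.04 in NZO/HlLtJ and -0.5 (adjusted p = 0.28) in 129S1/SvImJ. Its difference was 0.02 (SE 0.24, adjusted p = 0.99) in A/J, -0.07 (SE 0.24) in DBA/2J and -0.36 (SE 0.24) in NOD/ShiLtJ, which did not pass. H2-T23 was lowest relative to C57BL/6J in NOD/ShiLtJ (-3.66) and A/J (-3.04). B2m was lower in 129S1/SvImJ (-0.86), NZO/HlLtJ (-0.80) and CAST/EiJ (-0.76). These 3 strains had the lowest mean sums of both Kupffer and hepatocyte markers. Their TMM factors, which scale all of these levels, were 1.07 to 1.19, 1.16 to 1.23 and 1.14 to 1.16. In C57BL/6J the factors were 0.85 to 1.02, and a larger factor lowers every CPM of a library. What part the factors had was not tested.

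Kupffer markers had their 3 lowest mean sums in 129S1/SvImJ, CAST/EiJ and NZO/HlLtJ, where 8 genes each were lower (all genes, 11.7%, 19.7% and 16.2%). The hepatocyte markers had their 3 lowest mean sums in the same strains, 152465.2, 133411.3 and 137217.8 CPM against 191947.3 in C57BL/6J. Most of that sum was Alb, at 100916, 86601.5 and 93801.4 CPM against 130429.9. The means of Apoa1, Ttr, Trf, Apob and Cyp2e1 were also below those of C57BL/6J in all 3 strains. Those of Hnf4a, Tat, Cps1 and Ass1 were above them in all 3. PWK/PhJ, with 6 genes lower (all genes, 13.7%), had a mean Kupffer sum of 252.7 against 254.4 CPM in C57BL/6J. Its mean endothelial sum was 386.2 against 211.2 CPM. Both PWK/PhJ means rest on replicate 1: the other libraries held 154.1 and 154.0 CPM of Kupffer and 209.3 and 249.8 CPM of endothelial markers. The covariates were the mean log2 CPM over the Kupffer list and over the endothelial list, not these sums. On that scale PWK/PhJ had a Kupffer mean of 3.22 against 3.92 in C57BL/6J. Its endothelial mean was 4.89 against 4.09. With these covariates, all 10 genes were still called for a strain difference. Against C57BL/6J the calls became 0 of 10 in 129S1/SvImJ by the same edgeR test (5 at an unadjusted p under 0.05; DESeq2 without the covariates called 9), where 4.58% of all genes were called in the same fit. They became 5 in CAST/EiJ (all genes, 18.5%), 6 in NZO/HlLtJ (6.88%), 3 in NOD/ShiLtJ (8.44%) and 4 in DBA/2J (9.29%). WSB/EiJ had 5 (all genes, 14.8%), A/J 6 (12%) and PWK/PhJ 8 (26.7%). H2-K1 kept its call in 7 of 8 strains, all but 129S1/SvImJ. H2-Q2 kept all 5 of its calls. H2-Q7 lost 4 of 8, H2-Q1 3 of 7, H2-T23 3 of 6, H2-Q4 3 of 4, H2-D1 2 of 5, H2-Q6 2 of 5, H2-Q10 1 of 4 and B2m 3 of 3. Without C57BL/6J replicate 4 the count in NOD/ShiLtJ was 3, and without NOD/ShiLtJ replicate 3 it was 4.

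**Figure D5:**
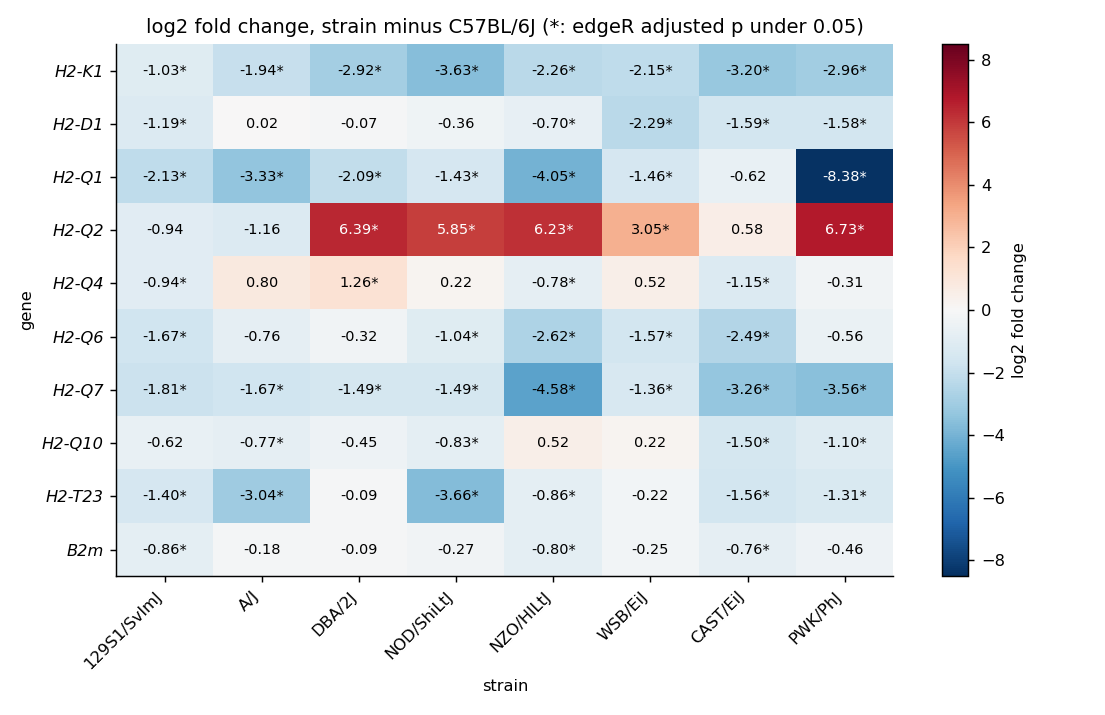
Log2 fold change of each gene in each strain against C57BL/6J, with an asterisk where edgeR's adjusted p was under 0.05. H2-K1 and H2-Q7 are lower across the whole row, H2-Q2 is higher in 5 strains, and the H2-Q1 value in PWK/PhJ rests on 3 counts.

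In 8 of the 9 strains, all but WSB/EiJ, a single library was highest or lowest in 7 or more of the 10 genes. In DBA/2J, replicate 3 was highest and replicate 4 lowest in all 10, with Kupffer marker sums of 198.7 and 35.8 CPM. Their hepatocyte marker sums were 241934.1 and 146566.3 CPM and their TMM factors 0.834 and 1.13. PWK/PhJ replicate 1 (9 genes), 129S1/SvImJ replicate 3 (9 genes) and A/J replicate 2 (7 genes) were highest where the Kupffer sum of their strain was highest, at 449.9, 93.2 and 298.6 CPM. The first 2 of these libraries also had the highest hepatocyte sum and the lowest TMM factor (0.878 and 1.07) of their strain. A/J replicate 2 had the lowest hepatocyte sum and the highest factor (0.9). NOD/ShiLtJ replicate 2 had the lowest factor of its strain (1.02), and NZO/HlLtJ replicate 1 a middle factor (1.22). C57BL/6J replicate 4 was highest in 8 genes with the lowest Kupffer sum (213.6 CPM) and the highest endothelial sum (279.8 CPM) of its strain. C57BL/6J replicate 1 was lowest in 10 genes with the highest Kupffer sum (285.1 CPM), the lowest endothelial sum (161 CPM) and a TMM factor of 1.02 against 0.85 and 0.863. NOD/ShiLtJ replicate 2 was highest in 8 genes with a Kupffer sum of 80.4 CPM, between the others, and the highest endothelial sum (215.8 CPM), while replicate 3 was lowest in 9 genes with the lowest Kupffer sum (75 CPM). NZO/HlLtJ replicate 1 was highest in 10 genes with a Kupffer sum of 78.4 CPM, between the others, and the lowest endothelial sum (56.9 CPM), while replicate 3 was lowest in 8 genes with the lowest Kupffer sum (37 CPM) and the highest endothelial sum (101.6 CPM). CAST/EiJ replicate 1 was lowest in 7 genes with the lowest endothelial sum (57.7 CPM, against 150.4 and 154.3). In WSB/EiJ the highest level lay in the 3 libraries in 4, 3 and 3 genes and the lowest in 3, 3 and 4. What part other cells or the TMM factor had in these shifts was not tested.

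The other genes of the pathway were described by list. For peptide loading, which covers the TAP peptide pump and the chaperones that fill the groove, 8 of 8 genes were called among the 9 strains (all genes, 74.2%), with a median strain range of 1.16. Tap2, a subunit of the pump, was highest in WSB/EiJ (95.3 ± 11.3 CPM) and lowest in 129S1/SvImJ (26.9 ± 2.31 CPM). Tapbpl, a peptide editor, ran from 42.7 CPM in DBA/2J to 17.5 in CAST/EiJ, and the chaperone Canx from 493.3 CPM in A/J to 267.9 in PWK/PhJ. The immunoproteasome, which cuts proteins into peptides, had 5 of 5 genes called, with a median range of 1.05. Its catalytic subunit Psmb8 was highest in DBA/2J (21.6 ± 2.97 CPM) and lowest in CAST/EiJ (3.88 ± 0.534 CPM, SD, n = 3), and Psmb9 had the same extremes, at 14.6 and 4.53 CPM. Psmb10 ran from 21.7 CPM in NOD/ShiLtJ to 10.3 in PWK/PhJ.

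Of the regulators of class I genes, 5 of 10 were called, below the 74.2% of all genes, with a median range of 0.73. Nlrc5, the transactivator of class I promoters, was highest in DBA/2J (24.3 ± 4.24 CPM) and lowest in 129S1/SvImJ (7.41 ± 1.55 CPM). B2m was lowest there too but highest in C57BL/6J, and a link was not tested. Rfxank, an X box factor subunit, ran from 15 CPM in NOD/ShiLtJ to 5.61 in NZO/HlLtJ. Irf1, Irf2, Rfx5, Rfxap and Nfyc did not pass. Among 17 other class I and class I-like genes, 12 of the 12 that passed the filter were called, with a median range of 1.81. Cd1d2, which encodes a lipid-presenting molecule, was the most divided of them, at 23.6 ± 1.08 CPM in 129S1/SvImJ and 0.158 ± 0.0173 CPM (SD, n = 3) in NOD/ShiLtJ. H2-Q8 and H2-Q9, further members of the Q region, were not analysed here.

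Across the 9 strain means of log2 CPM, the genes did not share a single pattern. H2-K1 and H2-D1 correlated at r = 0.2, H2-K1 and H2-Q2 at -0.64, and B2m at 0.84 with H2-Q4, 0.82 with H2-Q6 and 0.73 with H2-Q7. These are descriptions over 9 points that share libraries, depth and cell make-up. Among 11349 other genes with a mean of 1 CPM or more over all libraries, the closest to B2m was Tsn (r = 0.991), to H2-Q2 Dexi (0.977), to H2-Q4 Habp2 (0.961) and to H2-Q10 Vgll4 (0.96). The closest to H2-D1 was Ccnj (0.946), to H2-Q6 Gm4070 (0.945), to H2-Q7 Hectd2 (0.945), to H2-Q1 Cyp2c50 (0.934) and to H2-K1 C1galt1 (0.894). For H2-T23 the 3 closest had r of 0.873 to 0.907, Dusp6 among them at 0.881. With so many candidates and 9 points, values of this size are a ranking only.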

How the data were processed

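RNA-seq libraries of hepatocytes from 9 mouse strains were analysed, 3 per strain and 27 in all, made per the labels' protocols with poly(A) selection and a TruSeq RNA v2 kit that is not stated to mark strand. The authors deposited estimated counts (expected counts) per Ensembl gene, unscaled. The submitters' processing notes name FastQC 0.11.5, DESeq2 and GRCm38 (mm10), with no role; the aligner, counter and annotation are not given in the sources used here. All columns matched a sample by label. Symbols came from GENCODE M21, which named 42462 of 43346 IDs.

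Counts were rounded to whole numbers and tested with edgeR 4.0.16, under R 4.3.3 and beside limma 3.58.1, with filterByExpr by strain, TMM factors (0.722 to 1.226), and glmQLFit with glmQLFTest in a single model with strain as the only factor. The strain effect and all 36 pairs of strains were tested over 14482 genes, adjusted by Benjamini and Hochberg within each, and called under 0.05; SEs come from the F statistic. Pattern likeness was taken on log2 CPM (prior count 2). The fit was tested on simulated data. Intervals cover counting error only, since PCR reads are not independent molecules. Replicate numbers did not pair the libraries.

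The 10 genes, 4 pathway lists and 8 marker lists were chosen with earlier results of these data known. The rule for named genes took all 10 genes, up to 3 called genes of each pathway list by largest F, the 3 genes with the most similar strain means (for most, only the closest is printed), the extreme strains and each neighbouring pair. A gene that the rule took is not reported here. Alternatives were DESeq2 1.42.0, median-of-ratios factors, no filter, a mean of at least 10 counts, no rounding, the replicate block, marker covariates, fits on the 6 libraries of 2 strains, other constants added before the log, and leaving out each library.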

Additional observations from a re-analysis of the deposited data

How the results depend on the processing

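All 10 genes were called for a strain difference under every alternative run, including each left-out library. The calls over the genes and 36 strain pairs, 222, ran from 206 to 231 without each library, and were 231 with DESeq2, 209 with the marker covariates and 196 with the replicate block. Replicate numbers did not pair the libraries: deviations of same-numbered libraries correlated at a median of 0.02 (-0.29 to 0.28, 76 pairs), and 7 of 27 libraries correlated best with a library of their own number. Of 55 called fold changes against C57BL/6J, 32 kept their call and direction under every setting; the covariates ended 22, the replicate block 5 and DESeq2 0. Leaving out a library ended 12, most often H2-Q10 in A/J (17 of 27 libraries), H2-Q4 in NZO/HlLtJ (10), and H2-D1 in NZO/HlLtJ and H2-Q6 in NOD/ShiLtJ (5 each). H2-Q7 in WSB/EiJ was among the 12 (4 libraries).

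With the covariates, H2-D1 in NZO/HlLtJ changed sign from -0.70 to 0.04 (edgeR adjusted p = 0.96) and H2-Q4 in NZO/HlLtJ from -0.78 to 0.08 (adjusted p = 0.92). Genes called against C57BL/6J with the covariates numbered 0 in 129S1/SvImJ in place of 8 (all genes, 4.58% in place of 20.9%), 3 in NOD/ShiLtJ in place of 7 (8.44% in place of 15.9%), and 5 in CAST/EiJ in place of 8 (18.5% in place of 38%). A fit on the 6 libraries of A/J and C57BL/6J called 3 in place of 5. The causes were not tested. Without each library the counts spanned 3 to 7 in NOD/ShiLtJ, 4 to 5 in DBA/2J, 4 to 6 in both A/J and WSB/EiJ, 6 to 9 in NZO/HlLtJ, 7 to 9 in both PWK/PhJ and 129S1/SvImJ, and 8 to 9 in CAST/EiJ, and 10 genes kept the strain call throughout.

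The strain range moved beyond the spread between libraries with the constant added before the log in 2 genes read near 0: with 0.1 and with 2 it was 6.53 and 2.82 for H2-Q1, and 7.15 and 3.97 for H2-Q2, in place of 4.57 and 5.66. In PWK/PhJ H2-Q1 and in A/J H2-Q2 depth limits the fold. Levels of the other strains are limited by the unknown alignment reference.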
